A study of Mus musculus with 12 samples.

Results

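Ear3 and Ear6 are the rows for 2 eosinophil-associated ribonucleases among the 754 endogenous genes of a NanoString myeloid immunity panel. They were taken by symbol, and both passed the minimum mean count of 20 that left 415 genes for testing. The assay counts colour-coded probes hybridised to each transcript, so a value is a probe count. All 12 samples came from RELMa-/- mice given 500 L3 larvae of Nippostrongylus brasiliensis, a lung-migrating nematode, and killed on day 10. CD11c+ lung cells were kept overnight in 10% serum, starved in 1% serum for 1 h (growth protocol) or 2 h (design text), and then treated for 4 h. There were 3 samples in each of 4 groups: rRELMa (recombinant RELMa, 500 ng/ml) in run 2, PBS in run 2, rRELMa in run 1 and PBS in run 1. The labels give no strain background, age or sex, and do not say whether numbered samples came from separate mice or cultures. P-values therefore refer only to the spread of these samples, which could be technical. The labels also do not say what separates the runs.

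Eosinophil-associated ribonucleases are small secreted enzymes of the ribonuclease A superfamily. The mouse genes multiplied by duplication and are relatives of the human eosinophil granule proteins eosinophil cationic protein and eosinophil-derived neurotoxin. Several members are also made by macrophages: Ear1 and Ear2 are widely used as alveolar macrophage genes in mice, and the product of Rnase2a (also called Ear11) attracts macrophages. RELMa, encoded by Retnla, is a secreted protein of the same type 2 setting, made by alternatively activated macrophages and epithelium during worm infection. The mice lack it, and Retnla gave 5 to 14 raw counts in run 2 rRELMa samples, 7 to 18 in run 2 PBS, 6 to 11 in run 1 rRELMa and 11 to 12 in run 1 PBS. All lay below the background limit. Because the probe may lie inside or outside the deleted part, which the labels do not say, these counts do not check the deletion.

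Ear6 matched 1 gene row of the RefSeq table for the mouse build GRCm38.p6, a protein-coding gene on chromosome 14 at 51853768 to 51854643. Ear3 matched no row, by symbol or by synonym, and is given no position here. The panel held 2 further family members, Rnase2a at 51255261 to 51256112 and Rnase2b (also called Ear5) at 51162260 to 51163018 on the same chromosome. To show how alike these duplicated genes are upstream, the 250 bases before the annotated start of Ear6 and of Rnase2a are printed from RefSeq. They are the relatives among the measured genes that were both annotated and above background. Capitals mark matches, on either strand, to CCAAT, to GATAA or to TTGCNNAA, a core bound by C/EBP factors.
Ear6 (chr14:51853518-51853767, plus strand): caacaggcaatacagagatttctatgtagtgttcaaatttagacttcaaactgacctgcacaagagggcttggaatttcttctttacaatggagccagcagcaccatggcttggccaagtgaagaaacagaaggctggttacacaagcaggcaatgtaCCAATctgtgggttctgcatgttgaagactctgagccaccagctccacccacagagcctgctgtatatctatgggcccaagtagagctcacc
Rnase2a (chr14:51256113-51256362, minus strand): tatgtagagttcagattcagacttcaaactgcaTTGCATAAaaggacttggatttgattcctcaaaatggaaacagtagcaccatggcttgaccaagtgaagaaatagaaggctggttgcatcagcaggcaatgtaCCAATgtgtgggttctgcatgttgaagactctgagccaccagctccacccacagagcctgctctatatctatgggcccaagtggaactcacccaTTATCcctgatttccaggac

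The windows of Ear6 and Rnase2a were identical at 201 of 228 aligned positions (88.2%). Ear6 was 84.8% identical to Rnase2b, 85.1% to Ear1, 85.4% to Ear2 and 85.2% to Ear10 over the same kind of window, while that of Ear14 aligned at 49.2%. The CCAAT match lay 92 bases before the start in Ear6 and 114 in Rnase2a, and 34.5% of 27025 such windows hold one. GATAA occurs in 23% and TTGCNNAA in 9.55% of windows. A TATA box (TATAAA), a PU.1 core (GAGGAAGT), an AP-1 core (TGAGTCA) and STAT-type pairs (TTC and GAA parted by 3 or by 4 bases) were also searched on both strands, and neither window held one. They occur in 13%, 2.44%, 4.43%, 7.18% and 5.86% of windows. The motifs were not tested against the counts. These windows lie outside the transcripts that the probes bind. No transcript sequences were compared, and Ear3 had no sequence here. Without the probe sequences, how far each probe separates Ear3, Ear6 and unmeasured relatives is uncertain.

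Ear3 was counted well above background in all 12 samples. In run 2 its raw counts were 249, 277 and 230 in rRELMa samples and 164, 211 and 138 in PBS samples. In run 1 they were 218, 244 and 165 in rRELMa samples and 222, 239 and 297 in PBS samples. The rRELMa samples of run 2 all lay above the PBS samples of that run, whereas in run 1 the treatments overlapped. Ear6 had higher raw counts in run 2 than in run 1. Its values were 194, 173 and 184 in run 2 rRELMa samples, 176, 186 and 102 in run 2 PBS samples, 61, 66 and 50 in run 1 rRELMa samples and 57, 72 and 75 in run 1 PBS samples. The background limit of a sample, set at the mean of its 8 negative controls plus 2 SD, was 16.1 to 23.9 counts in run 2 and 19.7 to 31.1 in run 1. Ear6 stood 6.33 to 8.74 times above this limit in run 2 and 2.31 to 3.16 times in run 1, and Ear3 6.86 to 11.7 times in run 2 and 7.67 to 12.5 times in run 1. Endogenous totals were 411169 to 765719 in run 2 and 179719 to 257415 in run 1, so the raw counts are not on 1 scale between runs. The lowest Ear6 and Ear3 counts of run 2 belonged to PBS sample 3, which also had that run's lowest total.

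**Figure D1:**
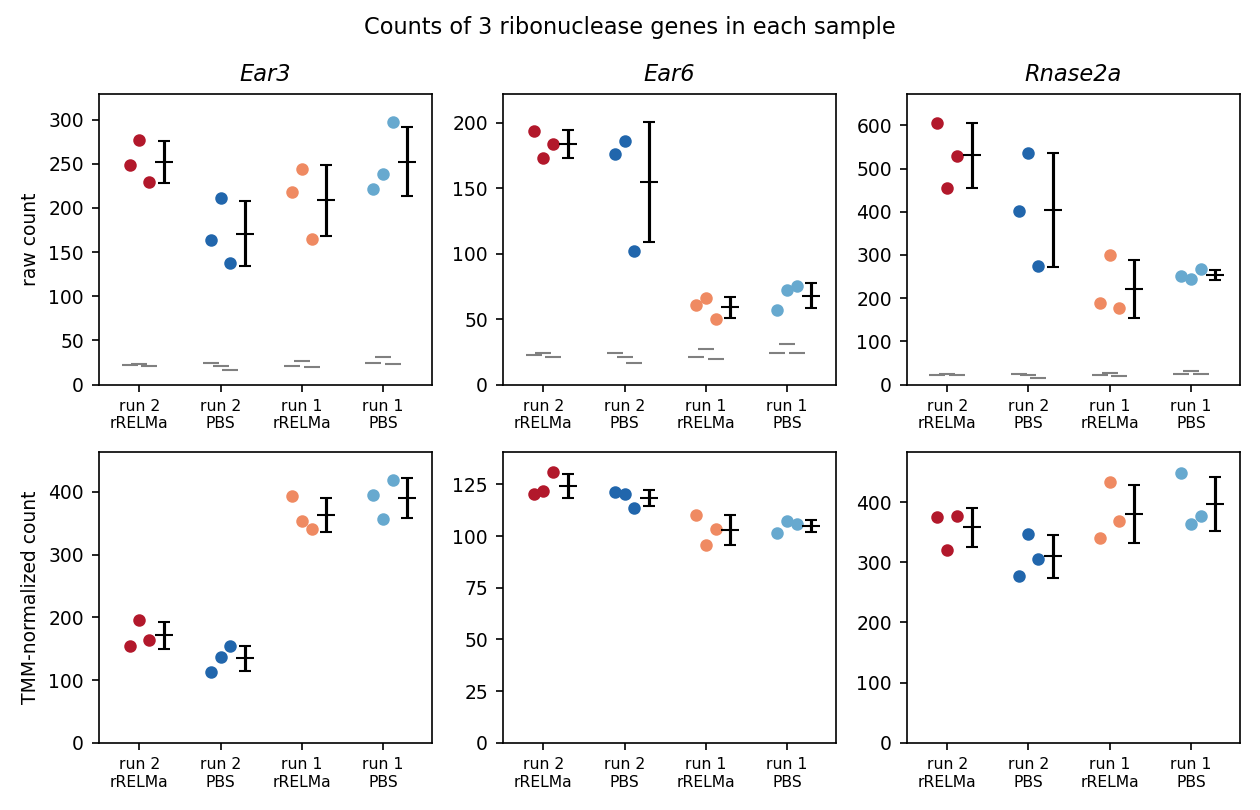
Raw counts (upper row, vertical axis from 0) and counts after TMM scaling (lower row) of Ear3, Ear6 and Rnase2a in the 4 groups. Points are samples, black bars the mean and SD of 3 samples, and grey dashes the background limit of each sample. Normalized Ear3 lies at 113 to 195 in the 6 samples of run 2 and at 341 to 419 in the 6 of run 1, while Ear6 lies at 114 to 131 and at 95.7 to 110.

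Counts were put on 1 scale with TMM, which assumes that most tested genes do not differ between samples. Normalized Ear3 averaged 171 ± 21.3 in run 2 rRELMa samples, 134 ± 20.5 in run 2 PBS samples, 363 ± 27.3 in run 1 rRELMa samples and 391 ± 31.7 in run 1 PBS samples (SD, n = 3 each). Normalized Ear6 averaged 124 ± 5.84, 118 ± 4.08, 103 ± 7.22 and 105 ± 3.01 in the same order (SD, n = 3 each). From the lowest to the highest, Ear3 thus ran from run 2 PBS through run 2 rRELMa and run 1 rRELMa to run 1 PBS. Its neighbours run 1 rRELMa and run 1 PBS overlapped, and the 2 groups of run 2 were parted by less than 1 normalized count (lowest rRELMa sample 154.3, highest PBS sample 153.8). Ear6 ran from run 1 rRELMa and run 1 PBS, which overlapped, to run 2 PBS and run 2 rRELMa, which overlapped too. The coefficient of variation within groups was 7.52% to 15.3% for Ear3 and 2.87% to 7.01% for Ear6.

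The classical eosinophil markers on the panel were at background in these sorted cells. Eosinophil peroxidase (Epx), the granule proteins Prg2 and Prg3, the eotaxin receptor Ccr3, the interleukin-5 receptor chain Il5ra, the lipoxygenase Alox15, the prostaglandin D2 receptor Ptgdr2 and the adenosine receptor Adora3 gave 1 to 17 raw counts. None of their 96 values exceeded the background limit of its sample. Their summed raw count was 33 to 44 in run 2 rRELMa samples, 35 to 51 in run 2 PBS, 38 to 62 in run 1 rRELMa and 36 to 55 in run 1 PBS. The same number of average negative controls would sum to 85 to 96, 61 to 103, 76 to 113 and 109 to 120. Siglecf, a lectin shared by eosinophils and alveolar macrophages, was the exception at 140 to 161, 97 to 176, 18 to 30 and 16 to 25 raw counts, near the limit in run 1. Of the 8 alveolar macrophage markers on the panel, Siglecf among them, 8 passed the count minimum, and the 7 others were above the limit in 12 of 12 samples. The sum of these 8 after TMM scaling was 114164 to 119853 in run 2 rRELMa samples, 109467 to 112143 in run 2 PBS, 73497 to 80783 in run 1 rRELMa and 73106 to 82110 in run 1 PBS. It is made up mainly of Chil3, a chitinase-like protein. In lysates of many cells, fewer cells of a type and less RNA per cell cannot be told apart.

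**Figure D2:**
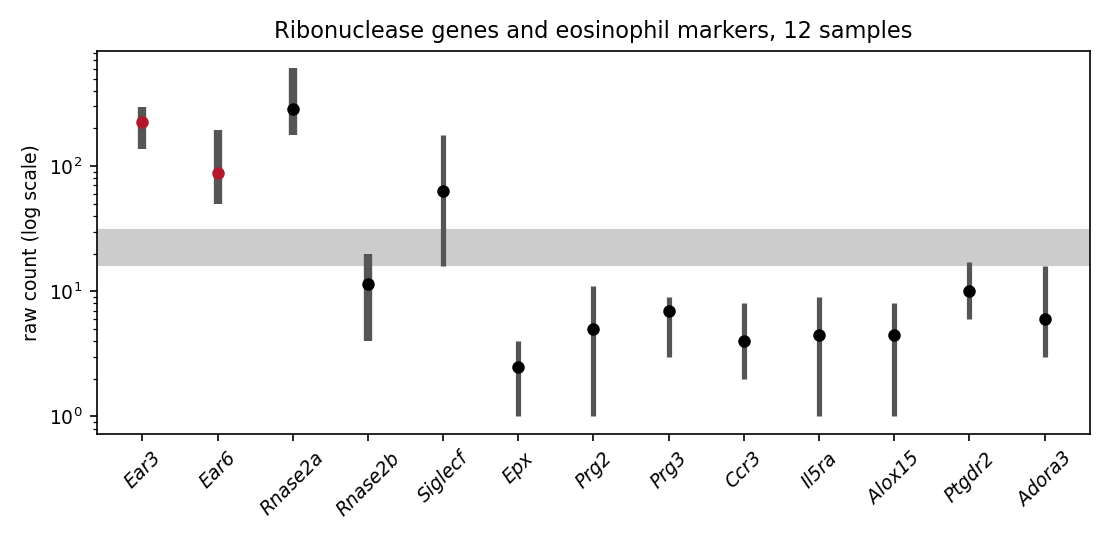
Raw counts (vertical log axis) of the 4 measured ribonuclease genes and 9 eosinophil markers. Bars run from the lowest to the highest of the 12 samples, points are medians, and the grey band is the range of the background limit over samples (16.1 to 31.1). Ear3, Ear6 and Rnase2a lie above the band in every sample, Rnase2b and the markers other than Siglecf below the limit of their sample.

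The first comparison asks whether the missing protein, given back for 4 h, changed the ribonuclease genes. Neither member passed the test. With the run as a block, the log2 fold change of rRELMa over PBS was 0.12 for Ear3 (SE 0.09) and 0.03 for Ear6 (SE 0.08), with adjusted p of 0.761 and 0.952 from edgeR's quasi-likelihood test. The 95% interval (1.96 SE each way) ran from -0.05 to 0.29 for Ear3 and from -0.12 to 0.18 for Ear6. Without 1 library at a time the Ear3 value was 0.044 to 0.14, with 0.044 without run 2 PBS sample 1 and 0.052 without run 2 rRELMa sample 2, and the Ear6 value 0.0022 to 0.040, lowest without run 2 rRELMa sample 3. Of the 415 tested genes 0.241% were called, which is 1 gene, Arg1. The median log2 fold change of all tested genes was 0.01. Ear3 ranked 94th and Ear6 303rd by unadjusted p.

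The runs gave different estimates for Ear3. In run 2 it was 28.8% higher with rRELMa (log2 fold change 0.37, SE 0.11), and its unadjusted p of 0.00264 from edgeR's fit over all genes was the smallest of the 415 genes in that comparison. The adjusted p was 0.367, so it was not called. In run 1 the estimate was -0.11 (SE 0.11, adjusted p = 0.873), with -0.20 without run 1 PBS sample 2 and -0.18 without run 1 rRELMa sample 1. The difference of the effect, run 2 minus run 1, was 0.47 (SE 0.15, edgeR, unadjusted p = 0.00485, adjusted p = 0.485), the 3rd smallest p of 415, and was not called. EdgeR called 0 genes (0%) in run 2, with 31 (7.47%) at an unadjusted p under 0.05. It called 0 genes (0%) for the difference, with 28 (6.75%) unadjusted. Limma with a pseudocount of 1 called 0 in both (28 and 23 unadjusted), DESeq2 called 0 (18 and 19 unadjusted), and limma on quantile-normalized counts called 1 and 0 (22 and 27 unadjusted), Ear3 not being called. In run 2 all 3 rRELMa samples lay above the PBS samples, as 14.9% of tested genes were separated in 1 direction or the other there. That separation was lost after scaling to reference genes or library totals. Scaled to the positive controls, Ear3 in rRELMa samples lay above all PBS samples in run 2 and below all of them in run 1. Its effects then differed by 0.80 (edgeR, adjusted p = 0.084). This pattern was not particular to Ear3, as Ear6 was separated in the same opposite directions on that scale. The median rRELMa effect over the 415 genes there was 0.18 among run 2 samples and -0.17 among run 1 samples. Run 2 minus run 1, that median was 0.35, with 114 genes at an unadjusted edgeR p under 0.05 and 0 called. With TMM, Ear3 was not among the 0.723% of genes separated in opposite directions in the runs. Leaving out 1 library at a time, the Ear3 estimate in run 2 was 0.25 to 0.45, lowest without run 2 PBS sample 1 and highest without run 2 PBS sample 3.

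Ear6 values were close to 0 in both runs. Its log2 fold change was 0.06 in run 2 (SE 0.10, edgeR, adjusted p = 0.954) and -0.04 in run 1 (SE 0.14, adjusted p = 0.971), with a difference of 0.10 (SE 0.17, adjusted p = 0.96). The interval of that difference, -0.24 to 0.43, is wide enough that equal effects in the runs were not shown. In run 1, 0.241% of genes were called, again Arg1 alone.

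**Figure D3:**
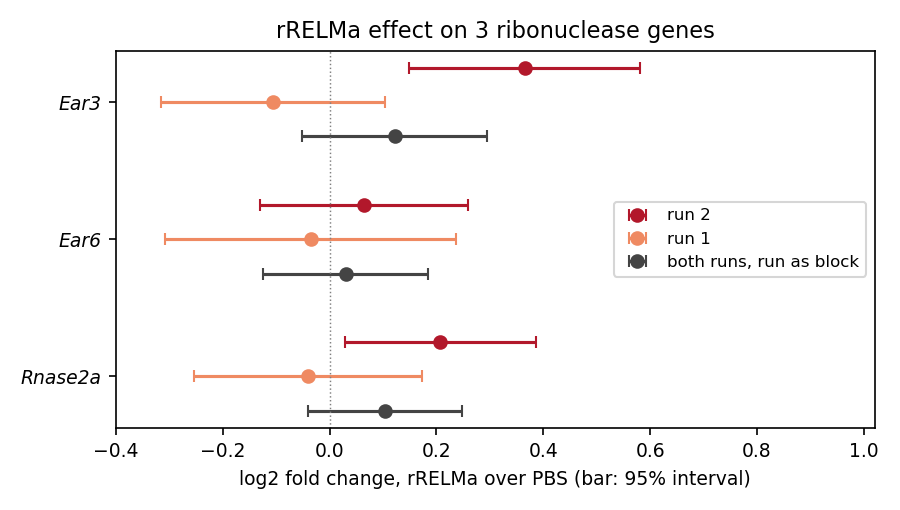
Log2 fold change of rRELMa over PBS for Ear3, Ear6 and Rnase2a in run 2, in run 1 and in both runs with the run as a block. Bars are 95% intervals from edgeR. The run 2 value of Ear3 (0.37) and that of Rnase2a (0.21) lie to the right of 0 with bars that do not reach it, before adjustment over 415 genes, and neither was called.

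The second comparison sets the runs against each other within a treatment. Ear3 was lower in run 2 than in run 1 relative to the other tested genes. In rRELMa samples it was 2.13-fold lower (log2 difference -1.09, SE 0.11, edgeR, adjusted p = 4.25e-10), and in PBS samples 2.95-fold lower (-1.56, SE 0.11, adjusted p = 2.55e-13). After TMM scaling the runs did not overlap, and Ear3 was lower in 6 of 6 run 2 samples. Such differences were common, although TMM assumes that most genes do not differ. In rRELMa samples 63.4% of tested genes were called between runs (29.9% higher, 33.5% lower), and in PBS samples 65.8% (29.9% higher, 35.9% lower). The runs did not overlap for 68% of genes in rRELMa and 67% in PBS. In PBS, 33 of 415 genes had a more negative log2 difference than Ear3, against a median over all genes of -0.03.

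Ear6 differed little between runs on the same scale. In rRELMa samples its log2 difference was 0.28 (SE 0.12, edgeR, adjusted p = 0.0477), which passed the threshold narrowly, and in PBS samples 0.18 (SE 0.12, adjusted p = 0.194), which did not. Both changed sign after scaling to library totals or reference genes, at -0.12 and -0.07 in rRELMa samples and -0.14 and -0.12 in PBS samples. The median gene lay lower on those scales, at -0.43 and -0.38 in rRELMa samples and -0.35 and -0.33 in PBS samples. The rRELMa call was also lost with DESeq2 (0.32, adjusted p = 0.0867) and in some fits without 1 library, with adjusted p up to 0.133 without run 1 rRELMa sample 2. It was kept with DESeq2 size factors in edgeR (0.32, adjusted p = 0.0229) and with limma on quantile-normalized counts (0.37, adjusted p = 0.000579). EdgeR without the filter on low counts kept it too (0.68, adjusted p = 1.06e-05). That fit covered 734 genes and called 420, with a median of -0.20 against -0.04 with the filter, so its scale differs.

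Positive-control scaling, which sets counts against RNA added at fixed amounts, moved all genes together, with a median log2 difference over tested genes of 1.91 in rRELMa and 1.59 in PBS samples. On that scale Ear3 was 0.87 higher in run 2 in rRELMa samples (adjusted p = 4.94e-08) and 0.07 in PBS samples (adjusted p = 0.656), and Ear6 was 2.23 and 1.79 higher (adjusted p = 3.6e-23 and 7.47e-18). Ear3 lay below the median gene, and Ear6 above it, in both treatments, but this was no separate check. A factor per sample moves all genes nearly alike, so their order could hardly change. As a share of endogenous counts, Ear3 took 0.025% to 0.042% in run 2 and 0.0918% to 0.115% in run 1, and Ear6 0.0248% to 0.0271% in run 2 and 0.0261% to 0.0319% in run 1. On the TMM scale, where 29.9% of all tested genes were called higher in each treatment and 33.5% lower in rRELMa and 35.9% in PBS, marker levels also differed between runs. Of the 8 alveolar macrophage markers 7 were higher in run 2 and 0 lower in each treatment, and Siglecf had a log2 difference of 1.39 in rRELMa (adjusted p = 1.08e-07) and 1.75 in PBS (adjusted p = 2.55e-09). Of 9 tested dendritic cell markers 4 were higher and 1 lower in rRELMa, and 5 higher and 1 lower in PBS. Of 10 interstitial macrophage or monocyte markers 2 were higher and 6 lower in each. The summed normalized level of 7 alveolar macrophage markers without Chil3 was 7696 to 8338 in run 2 and 2818 to 3213 in run 1. Cd36 was the largest part, averaging 4841 and 4915 in run 2 (rRELMa and PBS samples) and 1500 and 1702 in run 1. That of 11 dendritic cell markers was 1126 to 1469 and 738 to 1047, and that of 12 interstitial macrophage or monocyte markers 2972 to 3370 and 3092 to 3416. The last sum joins genes that moved in opposite directions. In rRELMa samples Trem2 averaged 801 in run 2 and 366 in run 1, and Cd14 113 and 347. No marker value in the table was 0. The part of these differences in the Ear3 and Ear6 values was not tested.

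**Figure D4:**
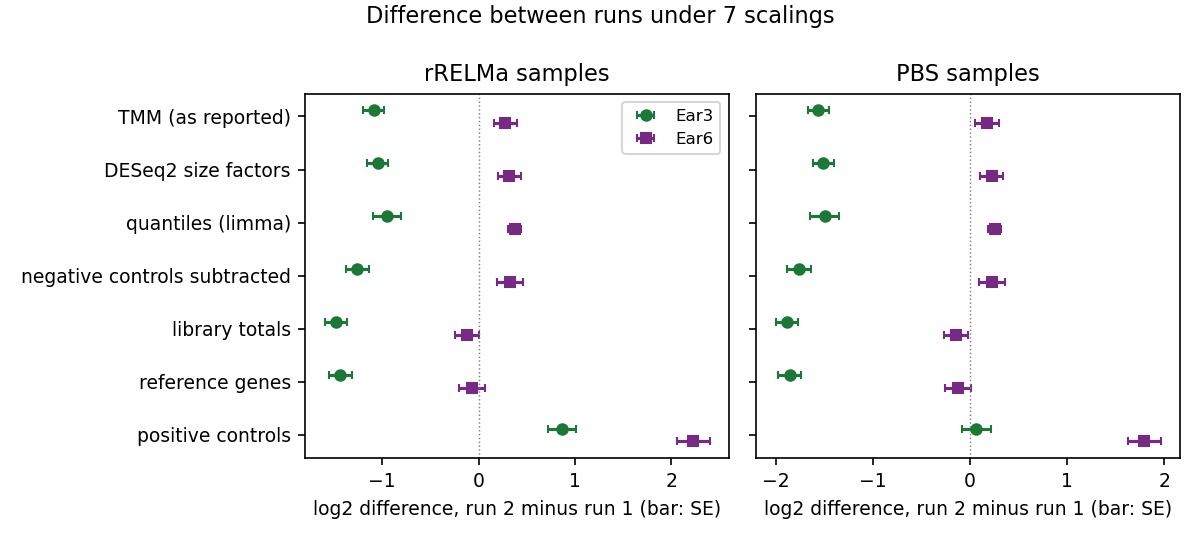
Log2 difference of run 2 minus run 1 for Ear3 (circles) and Ear6 (squares) in rRELMa samples (left) and PBS samples (right) under 7 scalings, with bars of 1 SE. Ear3 lies left of Ear6 under every scaling shown. A factor per sample moves both genes nearly alike, so for such scalings this order could hardly change. Ear3 is below 0 except with positive controls (0.87 and 0.07). Ear6 runs from -0.14 (library totals, PBS samples) to 0.37 (quantiles, rRELMa samples) except with positive controls (2.23 and 1.79).

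A ratio of both counts within a sample needs no scaling, and it separated the runs completely. The Ear6 count divided by the Ear3 count was 0.779, 0.625 and 0.8 in run 2 rRELMa samples, 1.07, 0.882 and 0.739 in run 2 PBS samples, 0.28, 0.27 and 0.303 in run 1 rRELMa samples and 0.257, 0.301 and 0.253 in run 1 PBS samples. The lowest ratio of run 2 was more than the highest of run 1 in both treatments. Full separation of the runs was common on the panel. After TMM scaling it held for 68% of single genes in rRELMa samples and 67% in PBS samples. How many other gene pairs have ratios that separate the runs as fully was not computed. The ratio was 2.57-fold higher in run 2 in rRELMa samples and 3.3-fold in PBS samples. The mean log2 difference was 1.54, higher in 6 of 6 run 2 samples (exact permutation of run labels within treatments, two-sided, p = 0.005, the smallest that 400 relabelings can give). With the negative controls subtracted it was 1.78. The ratio shows that Ear3 and Ear6 moved unequally between runs, not which of them moved, and as probes differ in efficiency it does not rank their abundance.

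Between treatments the ratio did not pass its test. The mean log2 difference of rRELMa over PBS was -0.10 (exact permutation of treatment labels within runs, two-sided, p = 0.43). It was -0.28 in run 2, a ratio 0.823 times that with PBS, and 0.08 in run 1, and 3 samples against 3 within 1 run could not have reached a p under 0.05.

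**Figure D5:**
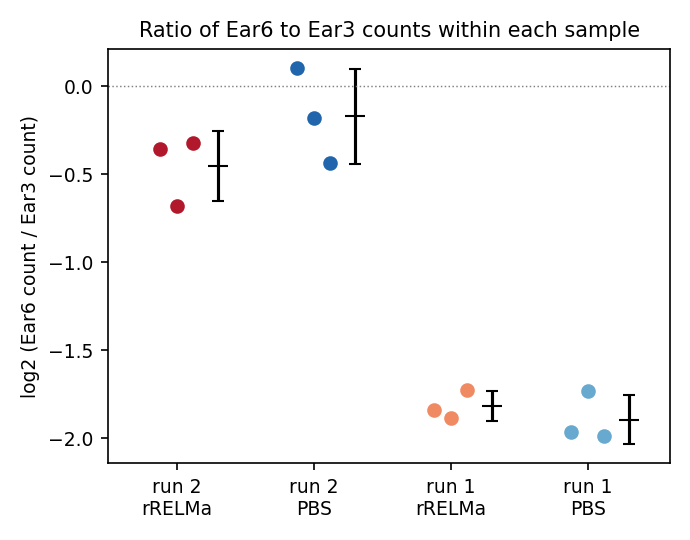
Log2 of the Ear6 count over the Ear3 count in each of the 12 samples (points), with the mean and SD of each group of 3 (black). Samples of run 2 lie between -0.68 and 0.10 and samples of run 1 between -1.99 and -1.72, with rRELMa and PBS samples overlapping in each run.

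Among the relatives, Rnase2a was measured as firmly as Ear3 and Rnase2b not at all above background. Rnase2a gave 606, 456 and 530 raw counts in run 2 rRELMa samples, 402, 536 and 274 in run 2 PBS samples, 188, 299 and 178 in run 1 rRELMa samples and 251, 244 and 267 in run 1 PBS samples. The raw counts of run 2 overlapped between treatments, and so did those of run 1. Its rRELMa effect was 0.21 in run 2 (SE 0.09, edgeR, adjusted p = 0.529) and -0.04 in run 1 (SE 0.11, adjusted p = 0.951), with a difference of 0.25 (SE 0.14, adjusted p = 0.748). None was called. Between runs Rnase2a was lower in run 2 in PBS samples (-0.35, SE 0.10, adjusted p = 0.00396), a call that was lost without run 1 PBS sample 1 (-0.24, adjusted p = 0.0674), and was -0.10 in rRELMa samples (SE 0.10, adjusted p = 0.41). In rRELMa samples it was called lower in run 2 with library totals (-0.49, edgeR, adjusted p = 7.08e-05) and reference genes (-0.44, adjusted p = 0.000723). The median over all tested genes was -0.43 and -0.38 on those scales, with 303 and 286 of 415 genes called, so Rnase2a lay near the typical gene. With positive controls the Rnase2a differences were above 0 (1.28 in PBS and 1.86 in rRELMa samples), where the median gene lay at 1.59 and 1.91. Within samples, Rnase2a counts were 2.23 ± 0.344 times those of Ear3 in run 2 and 1.04 ± 0.138 times in run 1 (SD, n = 6 each). Against Ear6 the ratio was 2.75 ± 0.286 in run 2 and 3.75 ± 0.58 in run 1 (SD, n = 6 each). Rnase2b gave 8 to 20 counts in run 2 and 4 to 17 in run 1, below the limit of every sample.

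The genes most like each member were ranked by the root mean square difference of log2 normalized counts over the 12 samples, each gene centred on its own mean. For Ear3 they were Tap2 (0.14), which carries peptides into the endoplasmic reticulum, Psme2 (0.18), a proteasome activator subunit, the phosphatase Dusp1 (0.19), the immunoproteasome subunit Psmb8 (0.20) and the Toll-like receptor relative Cd180 (0.20). The median of the 414 other genes was 0.71, and Ear6 ranked 251st at 0.79. For Ear6 the 4 nearest were the growth factor receptor Met (0.08), Vwa5a (0.08), the transcription regulator Id2 (0.08) and lipoprotein lipase Lpl (0.08), against a median of 0.31. Rnase2a ranked 140th for Ear3 and 179th for Ear6. With each gene centred within each run, so that the difference between runs drops out, the closest to Ear3 were Runx2 (0.12), Grn (0.12), Casp1 (0.13), Il1rn (0.14) and Tap2 (0.14), with a median of 0.23 and Ear6 50th at 0.18. For Ear6 they were Stat6, Ptprc, Tyrobp, Vsir and Txn1, all at 0.06, with a median of 0.16. Tap2 alone was among the 5 nearest to Ear3 both ways. Genes with little noise lie near Ear6 by this measure, because it varied little itself.

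Other genes tied to eosinophils and their signals showed few changes with rRELMa. So did the whole panel, where 1 of 415 tested genes (0.241%), Arg1, was called. Of 26 attractant and type 2 genes listed, 23 were on the panel and 12 tested: Arg1, arginase of alternatively activated macrophages, fell (log2 fold change -0.55, SE 0.10, edgeR, adjusted p = 0.00265) and 11 did not pass. Among those were the eosinophil attractant Ccl24 at 0.13, the chemokine Ccl8 at -0.23 and the mannose receptor Mrc1 at 0.09. Arg1 was not called when the model left out the run (-0.57, adjusted p = 0.9999). The median of the 12 was 0.05, against 0.01 over all tested genes. Of 14 panel genes for signalling through the GM-CSF, interleukin-3 and interleukin-5 receptors 10 were tested and 0 passed (median 0.03), with Bcl2, a survival factor, at 0.49, Stat5b at -0.17, Il3ra at -0.19 and Syk at 0.08. Of 9 genes for sensing RNA or DNA and for the TLR2 pathway 0 passed (median 0.01), with Tlr9 at 0.32, Tlr3 at -0.20, Irf3 at -0.12 and Myd88 at 0.09. Tlr9, a DNA sensor, exceeded the background limit in 9 of 12 samples, and Tlr3 in 4 of 12. Of 3 tested surface and lineage genes 0 passed, with the transcription factor Cebpa at 0.03. Of the 7 antimicrobial granule genes of other leukocytes on the panel only S100a8 reached the count minimum, and it did not pass.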

How the data were processed

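The values deposited by the authors are whole-number nCounter counts per probe for 768 probes (754 endogenous, 6 positive and 8 negative controls). They were not scaled: totals and positive controls differed between samples, and the lowest value was 1. Per the labels' protocols, lysate of about 5000 cells was hybridised with the nCounter XT Myeloid Innate Immunity Panel, and no counting software is named. Groups came from the sample titles. In 12 of 12 replicate pairs the counts differed beyond sampling noise (chi-square 1.55 to 3.25 for each degree of freedom), and none was counted as 1 library deposited more than once. This does not show that they are biological replicates.

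The counts of 415 genes with a mean of at least 20, without 20 reference genes, were tested with edgeR's quasi-likelihood test (edgeR 4.0.16, limma 3.58.1, DESeq2 1.42.0, R 4.3.3) and TMM scaling. The model held run and treatment, or 1 coefficient per group. P-values were two-sided and adjusted by Benjamini-Hochberg over the 415 genes, with calls under 0.05. The common biological coefficient of variation was 4.85%. The SE is the fold change divided by the root of the F statistic. The fits were tested on simulated data. The ratio of the members was tested by exact permutation over samples. Named genes are both members, family and eosinophil genes, up to 4 genes of each other list, called ones first and then those with the smallest p, and the 5 nearest by profile, of which 1 is not reported here. Values between treatments for Siglecf, Itgam and S100a8 were left out, as their signs varied with the settings, and cell type markers are given as counts. The members, lists and tests were chosen with earlier results of these data known. Same-numbered samples of a run showed no shared deviation (r -0.08 to -0.03 over genes in 6 pairs). Over pairs of unlike number r was -0.13 to 0.19. In both runs it was above 0 for rRELMa 1 with PBS 2, 2 with 3 and 3 with 1 (0.12 to 0.19). The reason was not tested. Promoter windows were aligned with Biopython 1.88.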

Additional observations from a re-analysis of the deposited data

How the results depend on the processing

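Over 14 results on Ear3 and Ear6, 322 alternative values were computed, and 299 kept both direction and side of the threshold. Part of these had little room to change. Leaving out a library outside a comparison moved its estimate little, and Ear3 in run 1 stayed at -0.106 without each run 2 library in turn. Results far from the threshold also had little room to cross it. All treatment effects of Ear3 kept their sign and stayed uncalled. The treatment effect of Ear6 with the run as a block turned just below 0 with library totals (-0.0048), reference genes (-0.0057), DESeq2 size factors (-0.0020) and DESeq2 (-0.0024). With positive controls the Ear3 difference between runs turned to 0.067 in PBS and 0.87 in rRELMa samples. The Ear6 difference in PBS turned to -0.14 with library totals and -0.12 with reference genes, and became a call with positive controls (1.79), quantiles (0.25) and no filter on low counts (0.54). In rRELMa samples it turned to -0.12 with library totals and -0.069 with reference genes. It was not called with DESeq2 (0.32), with reference genes kept among the tested genes (0.24) or with the replicate block (0.27), and in 7 of 12 fits that left out 1 library (0.24 to 0.34 over all 12). The call was kept with positive controls (2.23), quantiles (0.37), no filter (0.68) and DESeq2 size factors (0.32). Subtracting negative controls (0.32) and limma with a pseudocount of 1 (0.27) or 10 (0.25) kept it too. Same-numbered samples were not shown to be paired; with the replicate block the Ear3 effect in run 2 was 0.37 (adjusted p = 0.0761), 1 gene other than Ear3 was called in run 2, and no call on Ear3 or on Ear6 within PBS changed. Rnase2a turned with positive controls (1.28 in PBS, 1.86 in rRELMa) and with no filter (0.023 and 0.31). Without 1 library at a time, its difference between runs in rRELMa samples was -0.16 to 0.057, above 0 without run 1 rRELMa sample 2, and its run 1 treatment effect -0.20 to 0.020, above 0 without run 1 rRELMa sample 1 or PBS sample 1. The causes were not tested. Without the filter, run 2 against run 1 called 414 genes in PBS and 420 in rRELMa, against 273 and 263 with it, and 2 against 1 between treatments. With the negative controls subtracted 356 genes were tested. Ear6 in run 1 stood 2.31 to 3.16 times above the background limit, the lowest of both members and runs.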
